A study of Mus musculus with 24 samples.

Results

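The 10 genes described here encode proteins of the synaptic vesicle or its surface: the synaptotagmins Syt1, Syt4, Syt5 and Syt11, the membrane proteins synaptophysin (Syp) and Sv2a, the synapsins Syn1 and Syn2, and the small GTPases Rab3a and Rab3c. They were chosen by gene symbol, and every probe annotated to exactly 1 of these symbols was taken, which gave 21 of the 46643 probes and 10 of the 19406 named genes. RNA came from (C3H/HeH x 101/H)F1 mouse embryos with no treatment or mutation named, with 4 embryos at embryonic day 8.5 post coitum (E8.5), 4 at E10.5 and 4 at E12.5. Each head was cut along the midline and both sides were measured on an array of their own, so that the 24 arrays hold 12 embryos, and each stage holds 4 left and 4 right sides. The labels call the tissue brain, whereas the methods of the study describe dissected heads, which also hold mesenchyme, ectoderm, ganglia and blood. The age of an embryo is its stage, and no label gives a litter.

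Synaptic vesicles are small organelles of the nerve terminal that are filled with transmitter, dock at the release site, fuse with the plasma membrane when calcium enters, and are then taken back by endocytosis. Synaptotagmins sense calcium or steer the fusion step, synaptophysin and SV2 proteins are abundant integral proteins of the vesicle membrane, synapsins tether vesicles to each other and to actin, and Rab3 proteins guide vesicles to the release site. Neurons in the embryonic brain make many of these proteins while their axons are still growing, before most synapses have formed.

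The deposited intensities carried no read depth, and the number of arrays limits the precision. Between 12567 and 18117 probes of an array lay above its noise level, set at the 95th percentile of the size of its negative values (17.6 to 26.9). Levels below are quantile-normalized signals, with both sides of an embryo averaged and a stage given by the mean ± SD of its 4 embryos, and log2FC values are on the log2(signal + 119.5) scale, which understates the changes of dim genes. A gene was measured by its brightest probe. It was called higher or lower at an adjusted p under 0.05 over all probes in LIMMA. A fold is the ratio of 2 mean signals. Where a stage was not above noise on all 8 arrays it is a lower bound, at least so many fold, from geometric means with that stage's signals raised to the noise level. The right-side arrays fell into 2 sets by the embryo number. On the second principal component, with 27.4% of the variance, right-side arrays lay at 20.35 to 31.92 for embryos numbered 1 and 2 and at −47.24 to −28.38 for those numbered 3 and 4, and left-side arrays lay between and overlapped, at 2.224 to 13.05 for numbers 1 and 2 and at −1.205 to 5.75 for numbers 3 and 4. The labels tie no array to a BeadChip. Each comparison between 2 stages was also computed within 4 sets of arrays, formed by the side and by these numbers. The comparison of the 2 steps was not, and sides were compared by the embryo numbers alone. In bulk RNA of this kind, fewer cells of a type and less RNA per cell cannot be told apart.

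The synaptic vesicle genes were higher at later stages, and more of them rose from E10.5 to E12.5 than from E8.5 to E10.5. From E8.5 to E10.5 5 of the 10 genes rose (Syt1, Syt4, Syt11, Syp and Syn1) and 0 fell, beside 4.91% of all probes called higher and 5.8% lower. From E10.5 to E12.5 8 rose and 0 fell (background 5.92% higher, 4.51% lower), all but Rab3a and Rab3c. Over the whole period 9 rose and 0 fell (background 9.84% higher, 11% lower), with Rab3c the exception. Median log2FC over the 10 genes were 0.41, 1.13 and 1.85, against −0.0042, −0.0077 and −0.012 over all probes. In 5, 7 and 8 genes every array of the later stage lay above every array of the earlier one, which held for 2.23%, 2.53% and 4.98% of all probes. Syt1, Syn1, Syp and Syt5 are among the examples that the study picked on these arrays, and that they rose is therefore no independent evidence. Pan-neuronal marker genes moved with them: the summed signal of the 12 markers was 653 to 727 in the E8.5 embryos, 2750.0 to 5006 at E10.5 and 13168 to 20644 at E12.5, with Dcx, Nefl and Nefm not above noise on any array at E8.5 and Nefl on none at any stage. The 5 sensory ganglion markers summed to 591 to 922, 769 to 1553 and 2023 to 2124 at the 3 stages. Of these 1 rose in the first interval, 3 rose in the second (Isl1, Prph and Avil) and 0 fell, with Pou4f1, Prph and Avil above noise on no array before E12.5. The 5 erythroid markers summed to 11314 to 43714, 51873 to 63527 and 11728 to 33635, with 4 higher in the first interval and 4 lower in the second. The 3 surface ectoderm markers summed to 661 to 1199, 219.8 to 299 and 11.5 to 242, with Krt8 and Krt18 lower in both intervals and Krt5 higher in the second. The part of these cell types in the results was not tested.

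**Figure D1:**
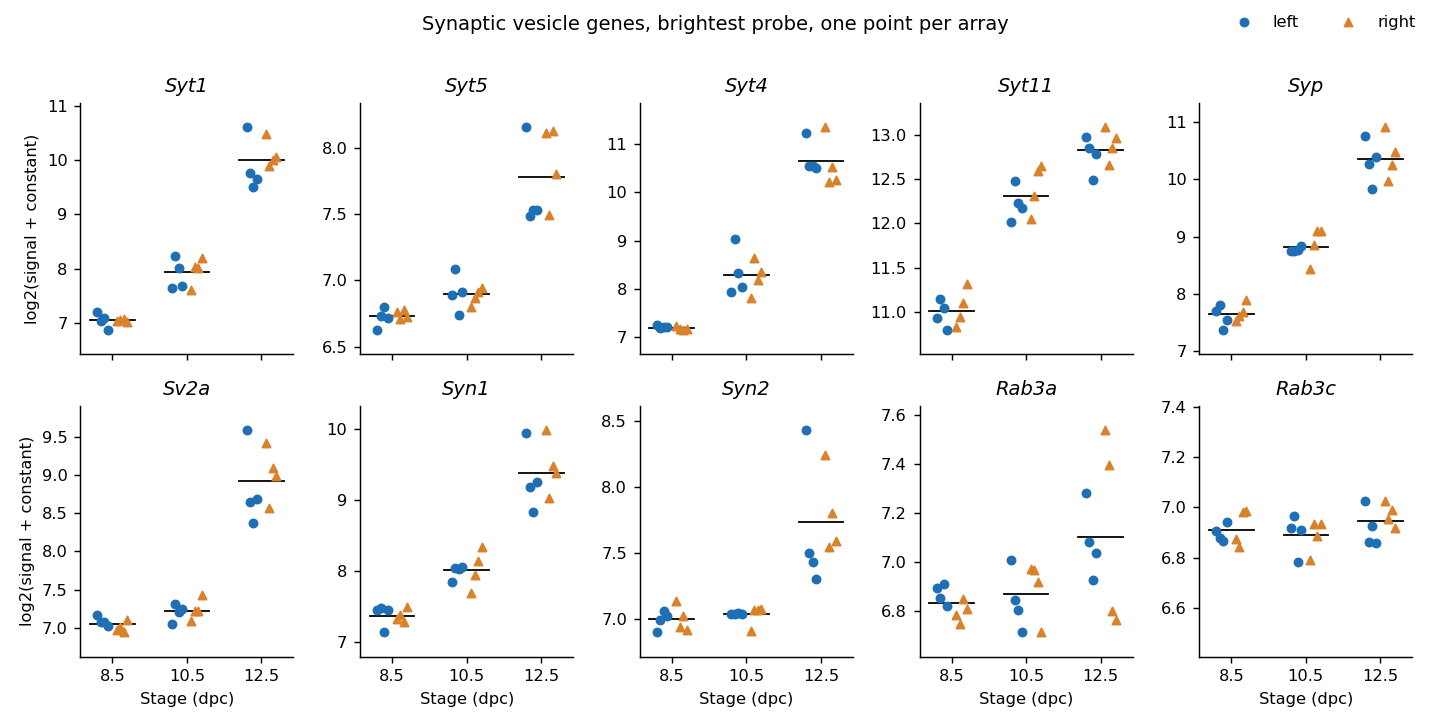
The log2(signal + constant) of the brightest probe of each of the 10 genes by stage in dpc, with 1 point per array (circles left, triangles right) and a line at the mean of the 8 arrays, each panel on its own scale. The 8 arrays of E12.5 lie above all arrays of E8.5 in 8 genes, while those of Rab3a and Rab3c overlap.

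Syt1, the main calcium sensor of fast transmitter release, was at the noise level at E8.5 and was bright 4 days later. Its brightest probe (102350435) gave signals from −2 to 27.3 (median 12.46) over the 8 arrays of E8.5, from 75.7 to 183 (median 139) at E10.5 and from 609.6 to 1442 (median 869) at E12.5. No arrays of different stages overlapped. The embryo means were 13.1 ± 6.68, 128 ± 35.8 and 935 ± 294 (SD, n = 4), an increase of at least 4.93-fold in the first interval (log2FC 0.88, SE 0.13, adjusted p = 3.68e-05) and of 7.32-fold in the second (log2FC 2.07, adjusted p = 1.36e-10). The first rise was not called within the left or the right sides of embryos 1 and 2 alone (log2FC 0.83 and 0.78, adjusted p = 0.217 and 0.114). Syt5, another calcium-binding synaptotagmin, showed no signal above noise on any array of E8.5 or E10.5. At E12.5 its probe (4150082) stood above noise on all 8 arrays, from 60.4 to 166.7 with a median of 84.9. Syt5 was thus at −13.2 ± 2.97, −0.28 ± 6.06 and 105 ± 43.7, with no call in the first interval (log2FC 0.16, adjusted p = 0.401) and an increase of at least 4.20-fold in the second (log2FC 0.89, SE 0.09, adjusted p = 2.79e-07).

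Syt4 and Syt11 are unusual synaptotagmins that carry a substitution in a calcium-binding domain, and Syt4 is known from dense core vesicles and from its induction by neuronal activity. From E8.5 to E12.5 Syt4 had the highest log2FC of the 10 genes (3.45), although with signals below 1 raised to 1 in place of the constant Syt5 (6.58) and Syt1 (6.44) stood above Syt4 (5.76). Its brightest probe (5080193) read 22.9 to 33.1 (median 27.6) at E8.5, 104 to 405 (median 186) at E10.5 and 1062 to 2486 (median 1354) at E12.5, again without overlap between stages. The embryo means were 27.4 ± 2.74, 204 ± 97.6 and 1545 ± 563. Both rises were called (first interval, log2FC 1.09, SE 0.16, adjusted p = 3.86e-05, second interval, log2FC 2.36, adjusted p = 4.82e-10), and the signal increased at least 51.2-fold from E8.5 to E12.5. The first rise was not called within the left or the right sides of embryos 1 and 2 alone (log2FC 1.26 and 1.03, adjusted p = 0.133 and 0.281). A second Syt4 probe annotated to the same transcript did not follow (its values stand with those of the other probes). The E10.5 embryos were widely spread, with embryo 1 at 114, embryo 2 at 343 and the others at 173 and 186.

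Syt11 was already well above noise on every E8.5 array, and its increase came mostly before E10.5. The signals of its probe (630433) ran from 1659.7 to 2423 (median 1915) at E8.5, from 4014 to 6326 (median 4822) at E10.5 and from 5628 to 8598 (median 7272) at E12.5. The arrays of E8.5 stood apart, while those of E10.5 and E12.5 overlapped. Embryo means of 1958 ± 129, 5033 ± 647 and 7246 ± 799.5 gave a 2.57-fold rise in the first interval (log2FC 1.30, SE 0.10, adjusted p = 2.02e-09) and a 1.44-fold rise in the second (log2FC 0.52, adjusted p = 0.000567). The second rise was not called when arrays were scaled by their medians (log2FC 0.35, adjusted p = 0.107), on the right sides alone (0.116) or within any of the 4 sets of arrays alone (0.0592 to 0.0994), although it was positive in 4 of 4 sets (0.29 to 0.70). Its upstream sequence is shown because Syt11 alone had a second step called smaller than the first. It covers 250 bases before to 50 after the annotated start (RefSeq, GRCm38.p6, chr3:88772550-88772849, minus strand, written 5′ to 3′ along the gene), and the capitals mark 2 GC boxes (GGGCGG, the core of an Sp1 site) that begin 82 and 48 bases before the start.
Syt11: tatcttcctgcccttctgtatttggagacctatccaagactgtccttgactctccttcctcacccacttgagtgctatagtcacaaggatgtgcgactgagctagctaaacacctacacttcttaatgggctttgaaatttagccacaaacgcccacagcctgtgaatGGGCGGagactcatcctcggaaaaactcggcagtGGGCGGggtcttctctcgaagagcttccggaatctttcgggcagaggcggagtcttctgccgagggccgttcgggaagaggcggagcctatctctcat

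Syp, an abundant integral protein of the vesicle membrane, rose in both intervals. Its brightest probe (2690168) gave 46.9 to 118 (median 81.5) at E8.5, 227 to 426 (median 328) at E10.5 and 795 to 1803 (median 1162) at E12.5, above noise on all 24 arrays and without overlap. The embryo means of 81.9 ± 12.2, 337 ± 52.0 and 1227 ± 347 correspond to a 4.11-fold rise (log2FC 1.17, SE 0.13, adjusted p = 4.89e-07) and then a 3.64-fold rise (log2FC 1.53, adjusted p = 7.24e-09), 14.99-fold in all. Sv2a, the vesicle glycoprotein that binds the drug levetiracetam, rose only after E10.5. Its brightest probe (5570685) read 2.96 to 24.0 (median 12.8) at E8.5, 13.2 to 52.1 (median 29.5) at E10.5 and 214 to 654 (median 340.6) at E12.5. The arrays of the earlier stages overlapped, and all 8 arrays of E12.5 lay above them. From 12.6 ± 2.43 to 29.95 ± 11.5 there was no call (log2FC 0.18, adjusted p = 0.562), except with signals below 1 raised to 1 in place of the constant (log2FC 1.38, adjusted p = 0.0286). The rise to 387 ± 153 was at least 11.8-fold (log2FC 1.71, SE 0.13, adjusted p = 1.75e-09).
The upstream window of Syp, shown for comparison as that of a member that rose in both intervals, lies at chrX:7638330-7638629 (RefSeq, GRCm38.p6, plus strand). Capitals again mark 2 GC boxes, which begin 67 and 49 bases before the start.
Syp: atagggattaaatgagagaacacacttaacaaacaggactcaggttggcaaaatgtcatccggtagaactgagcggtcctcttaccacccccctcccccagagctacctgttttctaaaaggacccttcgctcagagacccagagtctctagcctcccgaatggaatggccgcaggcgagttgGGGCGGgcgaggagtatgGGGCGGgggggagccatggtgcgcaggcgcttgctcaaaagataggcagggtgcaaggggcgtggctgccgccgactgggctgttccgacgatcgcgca

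Of the synapsins, which hold the reserve pool of vesicles together, Syn1 rose in both intervals and Syn2 only in the second. The brightest Syn1 probe (4920301) gave 20.6 to 60.9 (median 50.2) at E8.5, 86.1 to 203 (median 142) at E10.5 and 336 to 894 (median 519) at E12.5, with no overlap. Its embryo means rose from 46.3 ± 12.8 to 139.7 ± 31.9 (3.02-fold, log2FC 0.64, SE 0.13, adjusted p = 0.00164) and to 573 ± 207 (4.10-fold, log2FC 1.38, adjusted p = 7.07e-08). The first of these rises was not called on the right sides alone (log2FC 0.66, adjusted p = 0.101), nor within the left or the right sides of embryos 1 and 2 alone (log2FC 0.49 and 0.46, adjusted p = 0.368 and 0.527). The brightest Syn2 probe (3990593) was above noise on no array of E8.5 or E10.5 and on all 8 arrays of E12.5, where it read 38.7 to 226 (median 70.8). Embryo means of Syn2 were 8.52 ± 3.41, 11.8 ± 3.65 and 101 ± 69.8, with no call in the first interval (log2FC 0.04, adjusted p = 0.935) and a rise of at least 3.73-fold in the second (log2FC 0.70, SE 0.12, adjusted p = 0.000154). Without E12.5 embryo 1 the latter log2FC was 0.50 (adjusted p = 1.25e-06).
The Syn1 window at chrX:20920869-20921168 (RefSeq, GRCm38.p6, minus strand) is shown because it alone of the members' windows held the core of an RE1 element, the sequence bound by the repressor REST, which silences neuronal genes outside neurons. The capitals mark this match, CAGCACCGCGGTCAG, which begins 230 bases before the start.
Syn1: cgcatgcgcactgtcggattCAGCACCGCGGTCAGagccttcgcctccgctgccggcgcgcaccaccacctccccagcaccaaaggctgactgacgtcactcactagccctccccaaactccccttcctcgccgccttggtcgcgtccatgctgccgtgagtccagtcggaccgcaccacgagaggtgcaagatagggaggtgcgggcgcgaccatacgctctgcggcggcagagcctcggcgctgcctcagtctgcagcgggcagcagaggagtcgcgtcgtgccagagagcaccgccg

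Rab3a and Rab3c, the vesicle GTPases, stayed at or near the noise. The Rab3a probe (3940288) was above noise on no array of E8.5 or E10.5 and on 3 of 8 at E12.5, where embryos 1 and 2 were at 51.3 and 32.5 and embryos 3 and 4 at −2.86 and 0.54. The stages overlapped. The second interval alone gave no call (log2FC 0.23, adjusted p = 0.113), though it passed with the sets of arrays as a block (0.0244), in the right sides of embryos 1 and 2 alone (0.0154) or without E12.5 embryo 3 (0.0231) or 4 (0.0304). Rab3a was called higher at E12.5 than at E8.5 (log2FC 0.27, SE 0.09, adjusted p = 0.0321, no fold given), a call that was lost on embryo means (0.128), on the left or the right sides alone (0.061 and 0.294), within 3 of the 4 sets of arrays, and without E12.5 embryo 1 (log2FC 0.17, adjusted p = 0.163) or 2 (0.109) or any of the 4 embryos of E8.5 (0.0507 to 0.0816). All 3 Rab3c probes were above noise on 0 of 24 arrays, and none was called (brightest probe, 102680537, adjusted p = 0.86, 0.44 and 0.571). At this signal a change of Rab3c was not detectable.

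The size of the 2 steps was then compared for each gene, as the difference of the log2FC of the second interval and that of the first. The second step was larger in 4 genes, Sv2a (difference 1.53, SE 0.22, adjusted p = 0.00011), Syt4 (1.27, adjusted p = 0.00714), Syt1 (1.18, adjusted p = 0.00197) and Syt5 (0.73, adjusted p = 0.00795), and smaller in 1, Syt11 (−0.78, SE 0.17, adjusted p = 0.00632). Of all probes, 2.95% had a larger and 2.11% a smaller second step. Syn1 (0.74, adjusted p = 0.0705), Syn2 (0.66, adjusted p = 0.0664) and Syp (0.36, adjusted p = 0.562) were not called. Syn1 and Syn2 did pass when only probes above noise on at least 4 arrays were tested (adjusted p = 0.0466 and 0.0425). Syn1 also passed with median scaling (0.0356) and without E12.5 embryo 2 (0.0358) or 3 (0.0311), and Syn2 without E12.5 embryo 1 (0.00307), 2 (0.0462) or 4 (0.0264). The added constant compresses a first step that starts in the noise. With signals below 1 raised to 1 and no constant, Syt5 remained called (5.11, adjusted p = 0.000941) and so did Syt11 (−0.82, adjusted p = 0.0101), Sv2a was not called (2.32, adjusted p = 0.0699), nor was Syt4 (0.20, adjusted p = 1), and Syt1 turned sign (−0.66, adjusted p = 1). Without E10.5 embryo 1, Syt4 was not called either (0.99, adjusted p = 0.0742). The difference of Syp, not called with the constant, lay below 0 with signals below 1 raised to 1 (−0.23, not called).

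**Figure D2:**
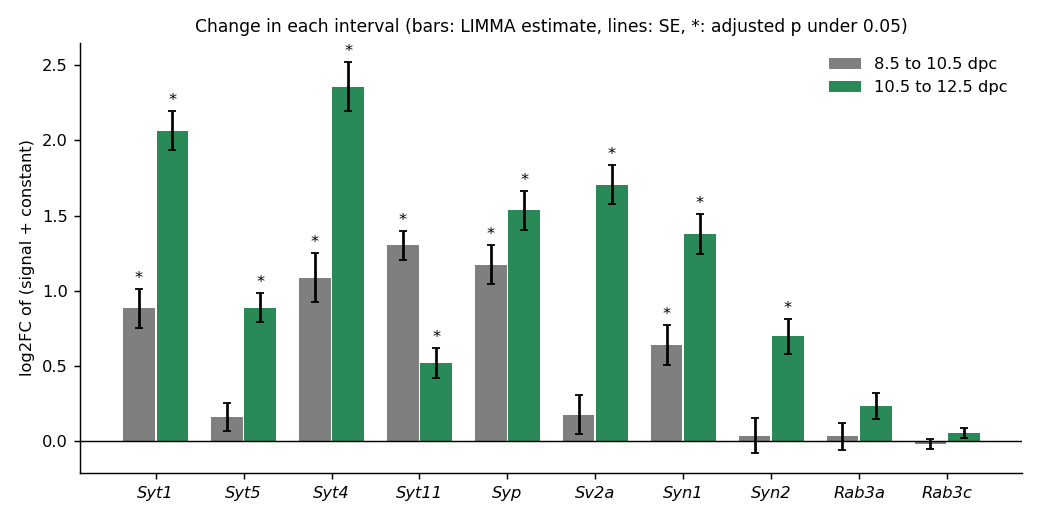
LIMMA log2FC of (signal + constant) from E8.5 to E10.5 (grey) and from E10.5 to E12.5 (green) for each gene, with SE as lines and stars at an adjusted p under 0.05. On this scale the green bar is the taller one in every gene but Syt11, whose steps were 1.30 and 0.52. As ratios of mean signals the steps of Syp were 4.11-fold and then 3.64-fold.

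The genes also differed in how well their probes followed each other. Of the 21 probes, 7 were called higher in the first interval, 12 in the second and 13 over the whole period, and 0 were called lower. For Syn1 the other probe rose in both intervals as well (12.2, 70.4 and 335, log2FC 0.52 and 1.23, adjusted p = 0.00157 and 1.68e-08), and its second step was larger (0.71, adjusted p = 0.026). A further Syt1 probe was below noise at E8.5 and read 26.1 at E10.5 and 232 at E12.5 (log2FC 0.42 and 1.25, adjusted p = 0.00395 and 2.1e-09), and the third Syt1 probe, above noise on 4 of 8 arrays at E12.5 only, was called in the second interval (log2FC 0.18, adjusted p = 0.00106). A further Sv2a probe was above noise on 4 of 8 arrays at E12.5 only (log2FC 0.59 in the second interval, adjusted p = 3.04e-05). The other Syt4 probe was above noise on all 24 arrays, at 113 ± 30.4, 120 ± 15.6 and 83.2 ± 23.7, and was not called in any comparison (log2FC −0.19 from E8.5 to E12.5, SE 0.11, adjusted p = 0.252). At E8.5 it read higher than the Syt4 probe used above (27.4 ± 2.74), which was chosen on its mean over all stages. The remaining probes of Syt11, Syp and Syn2 were above noise on 0 arrays, so that the rises of these genes, like those of Syt5 and Rab3a with 1 probe each, rest on 1 probe.

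**Figure D3:**
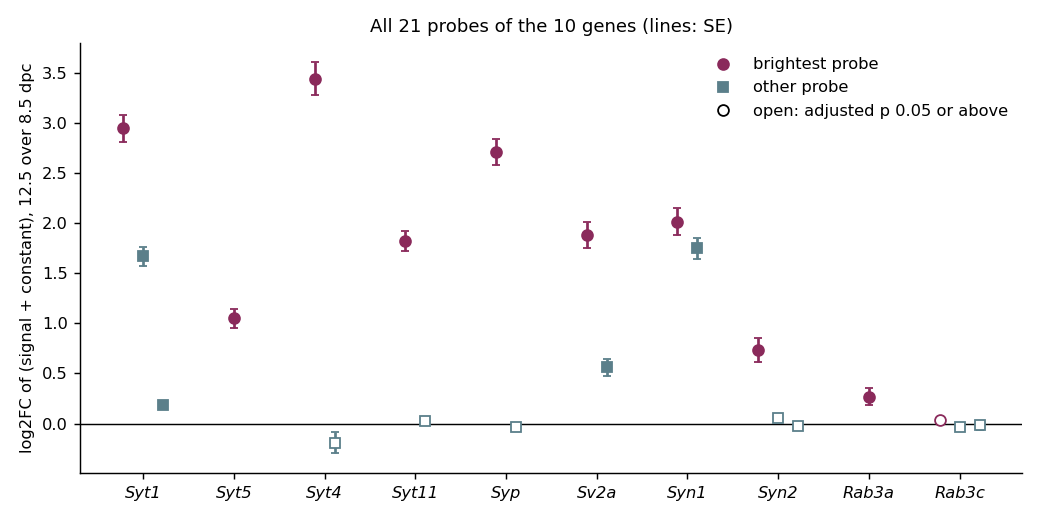
The log2FC of (signal + constant) from E8.5 to E12.5 of all 21 probes, by gene, with SE as lines, the brightest probe as a circle, other probes as squares and open symbols for an adjusted p of 0.05 or above. Brightest probes run up to 3.45 in Syt4, whose other probe lies at −0.19.

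Within a stage the embryos differed, and embryo 1 stood out. At E12.5 it was the highest of the 4 embryos in 10 of 10 genes, though Rab3c was within the noise and Rab3a near it. How many of all probes rank the embryos this way was not computed at any stage. These counts therefore describe the 10 genes only. Syt1 was at 1375 in embryo 1 against 793, 757 and 815 in embryos 2, 3 and 4, Syp at 1704 against 999, 943 and 1261, and Sv2a at 612 against 272, 322 and 341. Its ratio to the mean of the other 3 embryos was 1.20 for Syt11, 1.60 for Syp, 1.74 to 1.97 for Syt1, Syn1, Syt4, Syt5 and Sv2a, and 3.08 for Syn2. Rab3a and Rab3c are left out of these ratios, since their signals lay at or near the noise. The same embryo had the highest sum of the pan-neuronal markers (20644 against 13168 to 13718). It had the lowest sums of the 6 cranial mesenchyme markers (413 against 1555 to 2152), of the 3 surface ectoderm markers (11.5 against 183 to 242) and of the 5 erythroid markers (11728 against 22520 to 33635), and its 5 muscle markers summed to −29.0 against 109 to 1125 (Col1a2, Myod1 and Myog were above noise on no array). The part of these differences in the levels of the vesicle genes was not tested. Without this embryo 8 genes still rose from E10.5 to E12.5, with log2FC of 1.88 for Syt1, 2.14 for Syt4, 1.38 for Syp and 1.51 for Sv2a. At E10.5 embryo 1 was instead the lowest in 7 of 10 genes, and its pan-neuronal sum was the lowest too (2750.0 against 3660.1 to 5006). Both sides of a head tended to deviate together: the intraclass correlation within stages was 0.845 for Syt4, 0.772 for Syn2, 0.671 for Syn1 and 0.0853 for Syt11, with the other 6 genes between 0.387 and 0.63. Since the fit used 1 correlation of 0.0893 for all probes, SE values between stages are likely too small for most of these genes. On the means of the 2 sides of each embryo every stage call kept its side of the threshold except that of Rab3a. The differences between the 2 steps rest on the same correlation and were not compared on these means.

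Within the 4 sets of arrays 7 genes kept their direction throughout. Syt1, Syt4, Syt5, Syt11, Syp, Sv2a and Syn1 were higher at the later stage in 4 of 4 sets in each of the 3 comparisons, with log2FC from E8.5 to E12.5 of 2.59 to 3.14 for Syt1, 3.22 to 3.66 for Syt4, 2.57 to 2.87 for Syp and 1.71 to 1.99 for Syt11. Syn2 was higher in 4 of 4 sets in the second interval (0.33 to 0.93) and in 3 of 4 in the first. Rab3a ranged from −0.05 to 0.70 over the whole period. With 2 arrays a stage, calls were also lost for the first rise of Syp in the right sides of embryos 1 and 2 (adjusted p = 0.118), for the second rise of Syt5 in their left sides (0.0821), and for that of Syn2 in both (0.129 and 0.0757).

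Left and right sides were compared next, to ask whether any of the 10 genes was expressed asymmetrically. The study lists Scamp5, a vesicle gene outside the 10, as putatively asymmetric over all stages, and its sides are not described here. With the embryo as a block, 0 of 10 genes were called over all stages by LIMMA, or within any stage, and 0 reached an unadjusted p under 0.05 over all stages in LIMMA or in an exact two-sided sign-flip permutation test over the 12 embryos. Across all probes 0% were called and 8.88% had an unadjusted p under 0.05. Left minus right ranged over the embryos from −0.51 to 0.21 (median −0.08) for Syt11, which had the smallest adjusted p (mean −0.12, SE 0.07, adjusted p = 0.636). For Syp the range was −0.41 to 0.31 (median −0.13), and for Syt4, the gene most often higher on the left (10 of 12 embryos), −0.30 to 0.39 (median 0.04). The signs of the differences lay on both sides of 0 in each of the 10 genes. At E12.5 alone, Syt5 had an unadjusted p of 0.0456 (log2 difference −0.21, adjusted p = 0.999), where 3.69% of all probes passed that level. At E8.5 and E10.5 0 of 10 genes did (3.36% and 4.52% of all probes). The change between stages did not differ between the sides in any gene at an adjusted or an unadjusted p under 0.05 (0% of all probes were called).

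The same differences were taken apart by the embryo numbers. In embryos 1 and 2 the mean difference was above 0 in 9 of 10 genes, and in embryos 3 and 4 in 2 of 10. These counts include Rab3a and Rab3c, at or near the noise, and the genes correlate with each other. The share of all probes above 0 was not computed, so whether the counts differ from it is not known. In embryos 3 and 4 alone 4 genes were called, all lower on the left, Syp (−0.29, adjusted p = 0.000635), Syt11 (−0.32, adjusted p = 0.00242), Syn1 (−0.23, adjusted p = 0.0382) and Syt1 (−0.25, adjusted p = 0.0383). There 18.6% of all probes were called in either direction, and the share called lower on the left is not given here. In embryos 1 and 2 alone 0 genes were called, where 9.44% of all probes were, in either direction. At E12.5 alone 3 genes were called in embryos 3 and 4 (6.99% of all probes) and 0 in embryos 1 and 2 (1.31%). Whether the sets differ in these genes was not tested. The right sides of embryos 3 and 4 were the arrays farthest from the rest on the second principal component.

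**Figure D4:**
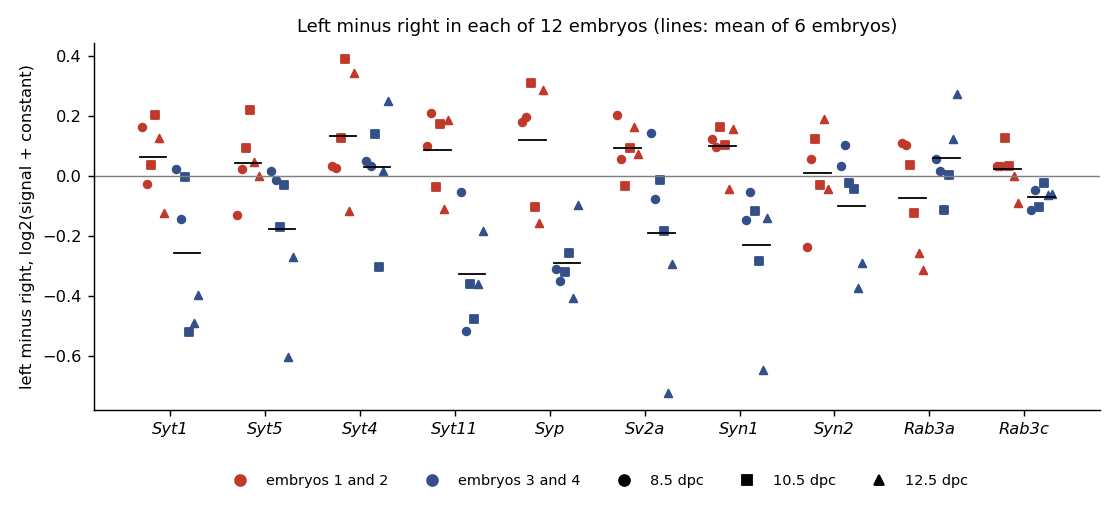
Left minus right difference in log2(signal + constant) of the 10 genes in each of the 12 embryos, embryos 1 and 2 in red and 3 and 4 in blue, with the stage by symbol and lines at the mean of 6 embryos. For Syp, Syt11, Syn1 and Rab3c, the last within the noise, all 6 blue points lie below 0, while the red points lie on both sides of it.

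Some genes followed the members closely over the 12 embryo means. Among 6513 symbols with a mean signal of at least 100 in some stage, the highest Pearson correlation with Syt1 was found for Rusc2 (0.9985), Ptbp2, a neuronal splicing regulator (0.9983), and Pou6f1 (0.998). Those nearest to Sv2a, with its late rise, were B3gat1, the enzyme that makes the HNK-1 carbohydrate (0.9985), Eef1a2, the elongation factor isoform of neurons and muscle (0.998), and Gria2, a glutamate receptor subunit (0.9979). Syp lay nearest to Dcaf5 (0.9962), Bmerb1 (0.9958) and Zbtb20 (0.9957). Syt11, with its early rise, lay nearest to Fez1, an axon growth protein (0.9954), Tox (0.9941) and Ifngr2 (0.9919). Between members, r was 0.996 for Syt1 and Syt4 and 0.987 for Syt5 and Sv2a, but 0.771 for Syt11 and Sv2a. All of these values share the stage difference and the 12 embryos, and they describe these arrays only.

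RefSeq windows of 300 bases were found for 8 of the 10 genes, 11 windows in all, and none for Syt4 and Syt5. Both strands were searched for 6 motifs. The RE1 core (CAGCACC, any 2 bases, GG, any 1 base, CAG) lay in 1 of the 11 windows, that of Syn1, and in 0.0578% of 32851 windows of all genes. A cAMP response element (TGACGTCA) likewise lay in the Syn1 window alone, where it did not overlap the RE1 core, and in 1.79% of all windows. GC boxes (GGGCGG) were found in 7 of 11 windows against 35.7% of all windows, CCAAT boxes (CCAAT) in 4 against 37.4%, E-boxes of the form CAGCTG in 4 against 16.3% and a TATA box (TATAAA) in 0 against 13.6%. The windows held 5 to 33 CpG dinucleotides (median 17), where the median over all windows was 7.

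The other genes of the vesicle cycle were counted in lists, which shows where the members stand among their partners. Of all probes, 4.91% were called higher and 5.8% lower in the first interval, and 5.92% higher and 4.51% lower in the second. Every list count below is to be read beside these shares. Snap25, Cplx1, Cadps, Rab3d, Amph, Scg2, Dcx and Mapt, named below, are also among the examples that the study picked on these arrays. That they rose here is therefore no independent evidence. From E10.5 to E12.5 7 of 9 measured genes of the fusion machinery rose and 0 fell (median log2FC 0.75), against 3 higher and 1 lower in the first interval (median 0.21). Over the whole period the largest rises here were in Snap25 (log2FC 3.69, adjusted p = 6.46e-18), Cplx1 (2.57), Vamp2 (1.56) and Stx1a (1.09). Snap25, Vamp2 and Stx1a form the SNARE complex that synaptotagmins act on, and Cplx1 clamps it. Of 13 release site proteins 6 rose in each interval and 0 fell, with medians of 0.09 and 0.07. They included Cadps, which primes dense core vesicles (log2FC 2.48 over the whole period), the scaffold proteins Pclo (1.80) and Erc2 (1.29), and the priming factor Unc13b (0.85).

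Of 7 vesicular transmitter transporters 2 rose in the first interval, 3 in the second and 0 fell. The glutamate transporter Slc17a6 rose from 28.6 through 408 to 2326 over the stages (log2FC 4.03 over the whole period, adjusted p = 3.71e-16) and the GABA and glycine transporter Slc32a1 from 54.7 through 182 to 1350.1 (log2FC 3.02, adjusted p = 4.04e-12). Slc17a7, the glutamate transporter that is typical of later cortical neurons, was called higher (log2FC 0.20, adjusted p = 0.00203) at a signal of 8.08 at E12.5, above noise on 1 of 24 arrays. Of 16 subunits of the vacuolar proton pump, which acidifies the vesicle so that it can be filled, 0 rose and 1 fell in the first interval, and 8 rose and 0 fell in the second (median 0.47). The brain-enriched subunit Atp6v1g2 rose over the whole period (log2FC 1.42, adjusted p = 5.12e-10), as did Atp6v0e2 (1.002), Atp6v0d1 (0.95) and Atp6v1e1 (0.64), and Atp6v1c1 fell by 0.35 on the log2 scale.

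Other members of the same protein families were counted as well. Of 13 other synaptotagmins 1 rose in the first interval, 2 in the second and 0 fell in either (medians 0.02 and 0.02), beside 4.91% and 5.92% of all probes called higher. Over the whole period the largest changes among those called were Syt16 (log2FC 1.57, adjusted p = 9.36e-07), Syt7, a slow calcium sensor (0.60), Syt13 (0.24, with signals above noise on 2 of 24 arrays), Syt9 (0.14) and Syt3, which fell by 0.14 on the log2 scale (adjusted p = 0.022). Of 15 other proteins of the vesicle membrane and surface 2 rose and 2 fell in the first interval, and 8 rose and 1 fell in the second (median 0.29). Among them the SV2-related Svop rose from 25.9 to 1109.9 (log2FC 2.98, adjusted p = 9.39e-11), followed by Scamp1 (1.14), Rab3d (1.10) and Scamp5 (1.06), while the more widely expressed synaptophysin relative Sypl, Syngr4 and Rab27b fell by 0.41, 0.29 and 0.13, the last at signals above noise on 1 of 24 arrays. Of 8 partners of the Rab3 cycle 0 were called in the first interval and 1 rose in the second, beside 5.92% of all probes called higher in the second. Rph3a (log2FC 0.21) and Madd (0.11) were called over the whole period at mean signals of 0.75 and 5.85 at E12.5, within the noise.

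Endocytosis and dense core vesicle genes rose in the second interval for the larger part. Of 9 endocytosis genes 1 rose and 1 fell and then 5 rose and 0 fell (medians 0.03 and 0.27), with the largest rises over the whole period in the endophilin Sh3gl2 (log2FC 1.60, adjusted p = 6.95e-09), Pacsin1 (1.08), Amph (0.83) and the fission GTPase Dnm1 (0.43). Of 7 dense core vesicle genes 3 rose, then 5, and 0 fell (medians 0.24 and 0.68). The prohormone-processing enzyme Cpe rose from 600.4 to 3111 (log2FC 2.16, adjusted p = 2.53e-11), followed by Scg5 (1.55), Chgb (1.39) and Scg2 (1.20). For comparison, 7 of 12 pan-neuronal markers rose in each interval and 0 fell (medians 0.78 and 1.21), Dcx (5.28 over the whole period), Mapt (4.24), Stmn2 (3.86) and Elavl3 (3.84) the most. Of 10 neural progenitor markers 5 rose and 0 fell in the first interval, and 0 rose and 2 fell in the second (median −0.19).

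**Figure D5:**
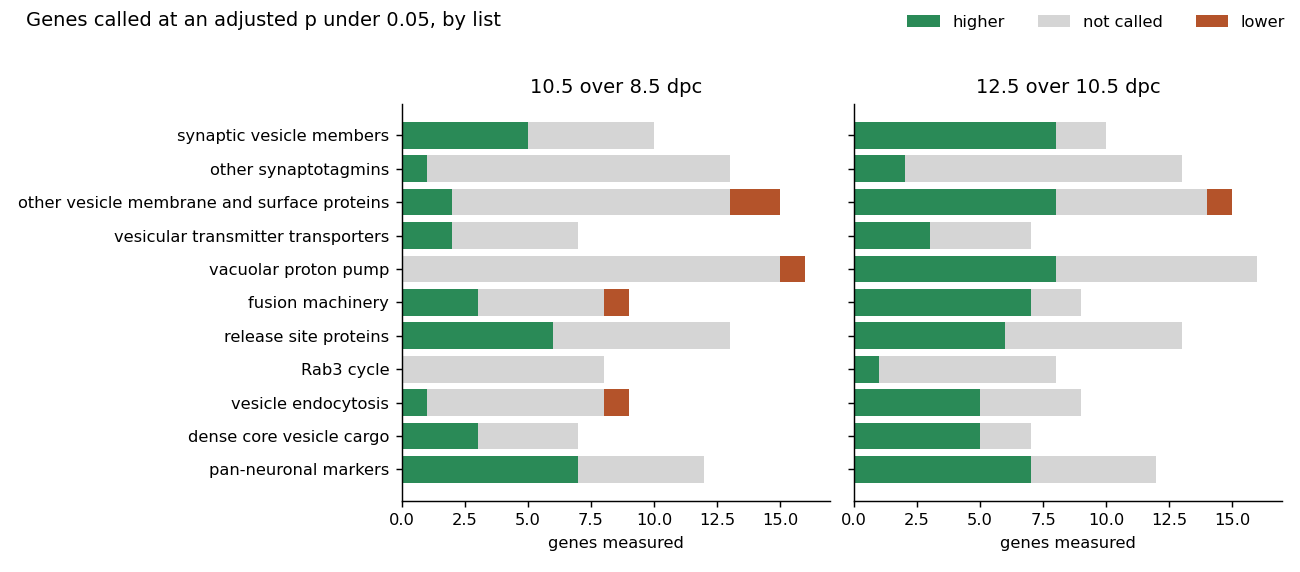
Numbers of measured genes called higher (green), called lower (brown) or not called (grey) at an adjusted p under 0.05, by list, from E8.5 to E10.5 (left) and from E10.5 to E12.5 (right). The 10 synaptic vesicle genes had 5 and 8 called higher, the proton pump 0 and 8, and the fusion machinery 3 and 7. Of all probes, 4.91% and 5.92% were called higher.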

How the data were processed

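Illumina mouse WG-6 BeadChips measured RNA of each head side of 12 F1 embryos. Deposited probe intensities are linear, with the background taken off by the authors' scanner software (BeadStudio in the study's methods, GenomeStudio in the submitters' processing notes, versions not given in the sources used here). Between 37.6% and 45.2% of an array's values lie at or below 0, and array medians differ (3.1 to 9.3), so the quantile normalisation of the methods is not in them. In a further table, 72 columns of values are named by BeadChip and position only, and none was used.

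A constant of 119.5 was added, which raised the lowest value (−103.5) to 16, and arrays were quantile normalized and log2 transformed. Symbols came from the platform annotation (32794 probes with 1 symbol, 55 with several, 13794 with none), and the gene identifiers of all 21 member probes matched the RefSeq table with 0 symbols changed. A further 3 probes carry several symbols, 1 of them a member, and were left out. For stages, limma (3.58.1, R 4.3.3) fitted stage plus side, and duplicateCorrelation (statmod 1.5.0) gave the correlation within an embryo (0.0893). Sides were compared within embryos (a fixed term per embryo), since the deviations of both sides of an embryo correlated over 0.1 in 12 of 12 embryos (0.134 to 0.574). Left and right come from the same embryo by the replicate number in the labels. P-values were Benjamini-Hochberg adjusted over all 46643 probes. Sign-flip tests used 4096 patterns. Embryos are the replicates, and whether they share litters is not given, so p-values speak for these embryos only. Those between stages rest on the spread over arrays, with the sides of an embryo correlated at 0.0893. Those between sides rest on the spread of the left-right differences within embryos. The scripts were tested on simulated data.

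The members and the gene lists were chosen with earlier results of these data known. Of each other list, up to 4 called genes with the largest change from E8.5 to E12.5 are named, with genes called in the opposite direction. Some listed genes, among them Sv2c, Atp6v0c, Rab3gap2, Picalm, Pcsk2 and Vgf, were not analysed here. Upstream windows (250 bases before to 50 after a start) are RefSeq's. Alternatives were another constant, signals below 1 raised to 1, median scaling, a noise filter, embryo means, each side, each set of arrays, other blocks, the mean of a gene's probes, and each embryo left out.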

Additional observations from a re-analysis of the deposited data

Results flagged for a closer look

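Of 30 groups of 4 embryos (10 genes at 3 stages), 6 held an embryo far from the others, with a gap to its nearest neighbour that took more of the whole range than Dixon's 95% criterion allows. Chance alone flags about 1 in 20 groups that are independent of each other. These 30 are not, since the genes were measured in the same embryos and correlate with each other. The count of 6 therefore cannot be set against that rate, and the share of all probes flagged was not computed. In all 6 flagged groups the far embryo was embryo 1. At E12.5 it was far above the rest in Syt1 (1375, gap 0.906 of the range), Syt4 (2384, 0.884) and Syn2 (205, 0.851). At E10.5 it was far below the rest in Syt11 (4067, 0.889) and in Syn2 (6.33, 0.917), the latter within the noise. At E8.5 it was far below in Syt11 (1766, 0.835). Embryos of the same number at different stages are different animals.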

How the results depend on the processing

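Of 1130 values of single genes under the alternatives, 1076 kept their side of the threshold, and their direction where called. A further 32 lost the call, 20 gained it and 2 that were called in the main fit turned sign. These 2 were Syt1 in the comparison of the steps with signals below 1 raised to 1 (−0.66), and Rab3a from E8.5 to E12.5 in the right sides of embryos 3 and 4 alone (−0.046). With signals below 1 raised to 1, the second step was larger in 1 gene rather than 4. That setting has no constant, which by its construction widens steps that start at dim signals. In sets of 2 embryos a stage, 2 and 5 genes rose (first and second interval) in the left sides of embryos 1 and 2. The counts were 1 and 7 in the right sides of embryos 1 and 2, and 5 and 7 in the left sides of embryos 3 and 4. The share of all probes called in each of these fits is not given here. These fits have fewer arrays, and Syt1, Syt4, Syt5, Syt11, Syp, Sv2a and Syn1 kept their direction in all of them. In embryos 3 and 4 alone 4 genes differed between left and right over all stages and 3 at E12.5 (18.6% and 6.99% of all probes). The cause was not tested.

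Leaving out each embryo in turn gave 5 genes higher in the first interval each time, 8 to 9 in the second, 8 to 9 over the whole period, 3 to 6 with a larger and 1 with a smaller second step, and 0 between sides. Replicate numbers share only a number between stages: deviations of equal-numbered arrays correlated at 0.627 to 0.884 on the right side, where the embryo numbers form the sets of arrays, but at −0.45 to 0.44 on the left, and 11 of 24 matched their own number best. With the replicate number as a block, Rab3a was called in the second interval (log2FC 0.23, adjusted p = 0.0342) and Syn1 and Syn2 had larger second steps (adjusted p = 0.0474 and 0.0309), and no other call changed. Without the embryo as a block limma called 0 genes between left and right. Median scaling moved the median log2FC of all probes to at most 0.0065. The limits are the signal over background for Rab3a and Rab3c, and 4 embryos a stage.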
